A study of Homo sapiens with 6 samples.

Results

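A set of 6 genes that handle platinum drugs and copper was examined in chromatin accessibility data from NCI-H1703, an established lung cancer cell line labelled as lung squamous cell carcinoma. They are SLC31A1 for uptake and its relative SLC31A2, ATP7B for export, ATOX1 as a copper chaperone, and GSTP1 and GSTM3 for detoxification. This makes 6 of the 20037 protein-coding genes in the gene table. The genes were taken by name, and their peaks are those overlapping the GRCh38 span of each gene plus 10 kb on either side. Peaks of the 6 libraries that overlapped by at least 1 bp were merged into regions, and 59 of the 507440 regions of the genome fell into these windows. ATAC-seq marks open DNA by the insertion of sequencing adapters with a transposase. The study compared 3 libraries of cells with silenced DLGAP1-AS2, a long non-coding RNA, with 3 libraries of control cells of the same line. The titles of the silenced libraries carry the letters ASO and those of the control libraries NC, which the labels do not spell out. The labels name no drug, time or dose, and the lists hold no RNA, so neither the degree of silencing nor the activity of these genes was measured.

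Cisplatin and related drugs enter and leave cells partly along the routes of copper. SLC31A1 (CTR1) is the high-affinity copper importer of the plasma membrane, and SLC31A2 (CTR2) is a related protein found mainly on internal membranes. ATOX1 passes copper to the copper-pumping ATPases, of which ATP7B carries copper, and also platinum, into the secretory pathway and out of the cell. Glutathione transferases such as GSTP1 and GSTM3 join glutathione to reactive compounds. A copper carrier, its chaperone and the glutathione enzymes thus act at successive steps between entry of the drug and its binding to DNA.

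The 250 bases before the RefSeq gene start are shown for the 5 members of the 6 that have an entry in the promoter table (GRCh38.p14), because the accessible region at each start is the main measurement. Each reads 5′ to 3′ along the gene's own strand. Capitals mark matches to any of 7 short motifs, searched on both strands: the antioxidant response element core TGACNNNGC, the AP-1 site TGANTCA, the TEAD site GGAATG, the metal response element core in 2 forms (TGCACNC and TGCGCNC), the GC box GGGCGG and the CCAAT box CCAAT. A palindromic match to TGANTCA is counted once, and the antioxidant and AP-1 letters overlap in GSTP1.
SLC31A1, chr9:113221294-113221543, plus strand: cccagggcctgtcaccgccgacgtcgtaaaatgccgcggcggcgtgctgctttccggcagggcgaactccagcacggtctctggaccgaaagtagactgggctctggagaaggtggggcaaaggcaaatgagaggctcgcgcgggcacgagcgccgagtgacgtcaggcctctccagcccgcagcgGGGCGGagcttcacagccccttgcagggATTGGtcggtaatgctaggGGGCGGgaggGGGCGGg
ATP7B, chr13:52012133-52012382, minus strand: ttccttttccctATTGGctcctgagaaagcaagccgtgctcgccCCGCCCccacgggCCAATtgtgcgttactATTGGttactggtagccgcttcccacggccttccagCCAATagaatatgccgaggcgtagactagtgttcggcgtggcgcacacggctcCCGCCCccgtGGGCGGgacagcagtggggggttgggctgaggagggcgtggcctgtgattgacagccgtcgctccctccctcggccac
ATOX1, chr5:151758632-151758881, minus strand: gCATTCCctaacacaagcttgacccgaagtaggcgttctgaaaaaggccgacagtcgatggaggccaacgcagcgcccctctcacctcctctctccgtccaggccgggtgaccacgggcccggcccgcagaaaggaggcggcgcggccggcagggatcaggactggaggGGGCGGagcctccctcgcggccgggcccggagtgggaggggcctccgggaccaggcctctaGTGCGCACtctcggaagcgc
GSTP1, chr11:67583562-67583811, plus strand: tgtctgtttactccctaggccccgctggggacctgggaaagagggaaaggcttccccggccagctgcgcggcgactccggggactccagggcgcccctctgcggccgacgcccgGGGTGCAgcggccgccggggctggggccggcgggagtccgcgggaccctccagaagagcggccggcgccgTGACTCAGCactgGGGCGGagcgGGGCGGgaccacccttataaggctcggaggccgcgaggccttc
GSTM3, chr1:109741039-109741288, minus strand: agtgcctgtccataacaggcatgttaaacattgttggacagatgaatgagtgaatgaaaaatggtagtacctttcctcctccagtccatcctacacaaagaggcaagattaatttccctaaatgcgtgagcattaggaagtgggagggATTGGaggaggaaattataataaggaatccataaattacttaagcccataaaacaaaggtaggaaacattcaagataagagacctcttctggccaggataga

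SLC31A1, ATP7B, ATOX1 and GSTP1 have CpG-rich sequence before the start, and GSTM3 does not. The CpG count in the 250 bases was 25 in SLC31A1, 20 in ATP7B, 24 in ATOX1 and 28 in GSTP1. GSTM3 had 1 CpG and a GC content of 40%. Over the 27305 promoters of the table the median CpG count was 11. GSTP1 holds the run TGACTCAGC at positions -66 to -58, counted back from the start, which matches both the antioxidant response element core and the AP-1 site. The first motif is present in 11.0% of all promoters of the table and the second in 6.60%. GC boxes, present in 42.3% of promoters, occur 3 times each in SLC31A1 and ATP7B, 2 times in GSTP1 and 1 time in ATOX1. ATP7B has 4 CCAAT boxes, a motif that 33.0% of promoters hold at least once. A metal response element core occurs in ATOX1 in the G form (16.9% of promoters) as 2 overlapping matches on opposite strands, and in GSTP1 in the A form (9.73% of promoters). The TEAD letters occur among these 5 sequences only in ATOX1, against 11.9% of promoters. These matches describe letters and were not tested for binding.

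All 6 genes had an accessible region at the gene start in every library. For comparison, 55.8% of protein-coding genes had a start region called in all 6 lists, where a start region is the merged region nearest to the start and within 1 kb of it. The regions at SLC31A1, ATP7B, ATOX1 and GSTP1 covered the 250 bases shown above almost fully: each of the 6 libraries covered all of them at SLC31A1 and ATP7B, and 5 libraries did so at ATOX1 and at GSTP1. At GSTM3 the peaks lay mostly on the gene side of the start, and in all libraries but silenced replicate 1 a peak also covered the start itself. Between 0 and 117 of the 250 bases were covered, so the sequence printed for GSTM3 is mostly not the accessible one. The height is the authors' pileup of fragments at a peak. It is not scaled between libraries, so heights were not tested between groups. In a bulk library, fewer cells with an open site and less opening per cell cannot be told apart.

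To compare libraries, the 37284 regions called in all 6 lists were ranked within each library by the authors' fold enrichment of the strongest peak, and the rank is given here as a percentile, with 100 for the most enriched region. The ranks were also turned into normal scores, whose unit is 1 SD over regions, and the difference between groups (silenced minus control) was tested with limma over all 37284 regions with Benjamini-Hochberg adjustment. Of these regions 0% passed an adjusted p of 0.05 and 4.68% had an unadjusted p under 0.05. The 59 regions in the members' windows included 11 called in all 6 lists, 6 at gene starts and 5 elsewhere. That is 18.6% of them, beside 7.35% of all regions of the genome. By limma, 0 of these 11 passed an adjusted p of 0.05, and 1 had an unadjusted p under 0.05. The median score difference was 0.10 over the 11 regions and 0.01 over all 37284.

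The libraries differ in size and coverage, and the part of these differences in the ranks was not tested beyond leaving out libraries. The lists hold 91346 to 170882 peaks. Read totals are unknown, and a relative coverage computed from the lists was lowest in silenced replicate 3 (0.237) and between 0.369 and 0.464 in the other 5 libraries. The median height over the shared regions was 10 in silenced replicate 3 and 16 to 19 in the others. Among the 9913 distinct start regions called in all lists, silenced replicate 3 had the lowest percentile of the 6 libraries at 31.4% and the highest at 22.7%. Of 6 markers of squamous cells, only SOX2 had a start peak in all lists, while TP63, KRT14 and DSG3 had one in 1 list each and KRT5 and KRT6A in none. The alveolar gene NKX2-1 and the mesenchymal-type genes VIM and COL1A1 had start peaks in all 6 lists, and the alveolar gene NAPSA in 5. The alveolar gene SFTPC had a region called in all 6 lists, at low percentiles (7.91 to 26.7). Genes without a listed start were checked at either end of the span. Whether this region lies at the SFTPC start or at its other end was not checked. Of the immune and endothelial markers, PTPRC and CDH5 had none, CD3E had one in 2 lists and PECAM1 in 1 list. At the starts checked, most squamous markers thus had a peak in 1 list or in none. A gene with a listed start was checked at that start alone, and other starts of the same gene were not examined. These peaks do not settle the squamous label, and the cells are called by the line's name here.

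SLC31A1, the copper importer, had one of the most enriched regions of the set. Its start region (chromosome 9, 113220960 to 113221872) covers the starts of both SLC31A1 and FKBP15, a neighbour on the opposite strand that begins 267 bp away. The peak thus lies at 2 genes and cannot be assigned to either. The peak height was 52, 72 and 26 in the silenced libraries (replicates 1 to 3, always in that order), against 65, 74 and 71 in the controls. The heights of the groups overlap, with silenced replicate 3 lowest. In percentiles the region stood at 93.0, 98.5 and 87.8 in the silenced libraries and at 98.9, 98.6 and 99.1 in the control libraries. The 3 silenced percentiles lie below all 3 control percentiles, with silenced replicate 2 just below control replicate 2. Among all shared regions the groups did not overlap in 10.2%, and they did not in 2 of the 11 member regions. The score difference was -0.68 (SE 0.23, 95% interval -1.16 to -0.19), the only one of the 11 with an unadjusted limma p under 0.05, and its adjusted p was 0.963. The shift does not pass the test over all regions. Without silenced replicate 3 it was -0.46 (limma adjusted p = 0.965) and the unadjusted p was no longer under 0.05. It was -0.23 when the lists were ranked by height and -0.34 when ranked by p-value, so its size depends on the measure ranked. By height, 0 of the 11 regions had an unadjusted p under 0.05.

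Outside the start, the SLC31A1 window held 10 weak regions, of which 9 were called in a single library and 1, 6026 bp before the start, in silenced replicate 1 and control replicate 3. None of these reached a height above 5. The window held 4, 1 and 1 peaks in the silenced libraries and 4, 2 and 5 in the control libraries. On average a silenced library had 2 ± 1.73 (SD, n = 3) peaks there and a control library 3.67 ± 1.53 (SD, n = 3), which differ by no more than the libraries do (exact two-sided permutation p = 0.3). With 3 against 3 this test cannot give a p below 0.1. Over all protein-coding windows with a peak, the counts of the groups did not overlap in 3.11%, and they overlapped in all 6 member windows.

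SLC31A2 lies 57.4 kb from SLC31A1 on the same chromosome, and its window does not meet that of SLC31A1. The start region (chromosome 9, 113150659 to 113151278) lies across one end of the gene span. Its height was 41, 53 and 12 in the silenced libraries, against 38, 56 and 47 in the controls. The height of 12 in silenced replicate 3 is the only one below 38. In percentiles the region stood at 90.8, 93.1 and 60.8 in silenced and 83.5, 91.0 and 91.6 in control libraries. The groups overlap, and the score difference was -0.20 (SE 0.27, limma adjusted p = 0.970). Without silenced replicate 3 the difference turned to 0.18. A region 5887 bp from the start was called in silenced replicate 2 and in control replicates 1 and 3, at heights of 5, 4 and 4. Peaks per window numbered 2, 3 and 1 in silenced and 4, 1 and 4 in controls (exact two-sided permutation p = 0.6).

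**Figure D1:**
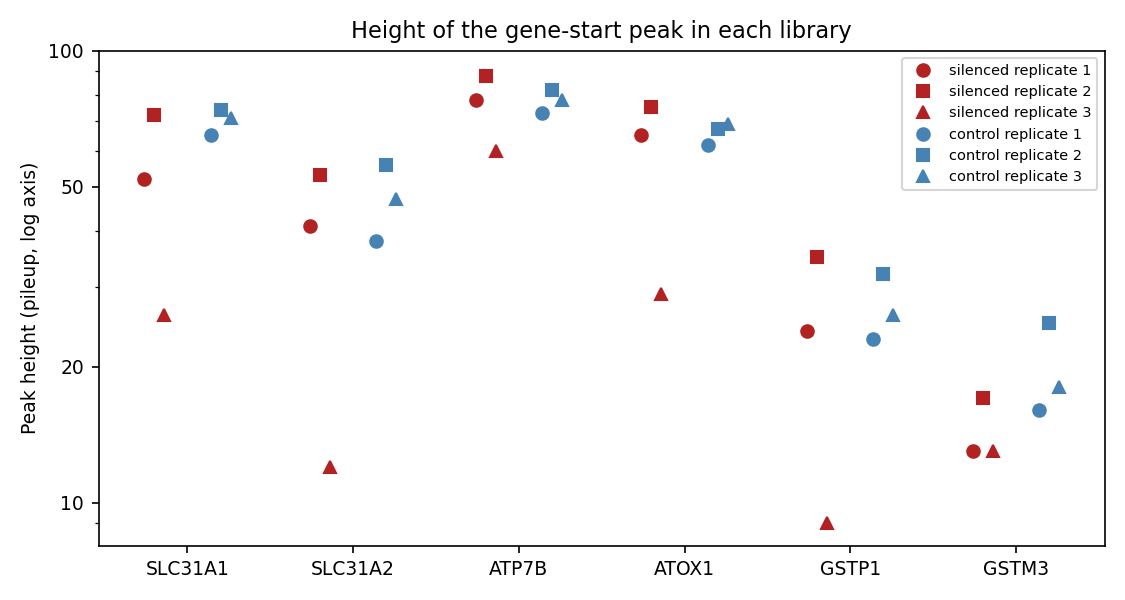
Height of the gene-start peak (authors' pileup, log axis) for the 6 genes, with 1 point per library, silenced in red and control in blue, and the marker shape giving the replicate number. Silenced replicate 3 is the lowest point at 5 of the genes and shares the lowest height of 13 with silenced replicate 1 at GSTM3.

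ATP7B, the copper-pumping ATPase, had the tallest start peak of the 6 genes in every library. The region (chromosome 13, 52011353 to 52012545) covers the starts of both ATP7B and ALG11, an enzyme gene of protein glycosylation that begins 266 bp away on the opposite strand. Its height was 78, 88 and 60 in the silenced libraries, against 73, 82 and 78 in the controls. The heights overlap between groups. The percentiles were 98.3, 98.0 and 99.8 in silenced and 97.0, 97.7 and 96.6 in control libraries. Here the silenced libraries lie above all control libraries, and silenced replicate 3 is the highest. The score difference was 0.43 (SE 0.22, 95% interval -0.03 to 0.90, limma adjusted p = 0.963). Without silenced replicate 3 it was 0.18. In silenced replicate 3 the ATP7B peak was 6 times the library's median height over shared regions, against 4.29 to 4.89 times in the other libraries. In the same library the SLC31A2 peak was 1.20 times the median, against 2.24 to 2.95 times elsewhere. The library of lowest coverage therefore moved both up and down among these genes, and its part in the 2 differences is given by the values without it.

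The ATP7B window was the longest and the richest, with 26 regions, of which 4 were called in all lists and 18 in a single one. Inside the gene span, 7235 bp from the start, lies a shared region (52004563 to 52004897) with heights of 7, 9 and 9 in silenced and 11, 3 and 7 in control libraries. It had the largest score difference of the 11 member regions, 1.14 (SE 0.59, limma adjusted p = 0.963), and the groups overlap. The percentiles were 17.4, 22.4 and 50.5 in silenced and 28.4, 0.0308 and 13.5 in control libraries, so control replicate 2, where the authors' FDR of the peak was 0.309, lies at the bottom of its list. Without control replicate 2 the difference was 0.28, and without control replicate 1 it was 1.70 (limma adjusted p = 0.998 in both). Another region (52001114 to 52001494) was called in 5 libraries at heights of 7 to 15, and was not called in silenced replicate 3. Near the far end of the gene a region (51935721 to 51936276) had heights of 8, 12 and 8 in silenced and 9, 7 and 8 in control libraries. Its percentiles were 27.7, 49.4 and 45.6 in silenced and 28.7, 14.3 and 22.2 in control libraries, which overlap (limma adjusted p = 0.963). Beyond the gene end, inside the span of TMEM272, a region (51924011 to 51924329) had heights of 7, 15 and 12 and of 12, 9 and 9. The score differences of all 4 shared ATP7B regions were positive, and 0 of 4 had an unadjusted p under 0.05. Under some alternatives 3 of the 4 did: the region 7235 bp from the start with the replicate block and without control replicate 1 or 3, the start without silenced replicate 1 or 2, and the TMEM272 region without silenced replicate 1. None passed an adjusted p of 0.05 in those fits. These regions share their libraries and are not independent. Peaks per window numbered 11, 11 and 6 in silenced and 7, 10 and 9 in controls (exact two-sided permutation p = 0.8).

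**Figure D2:**
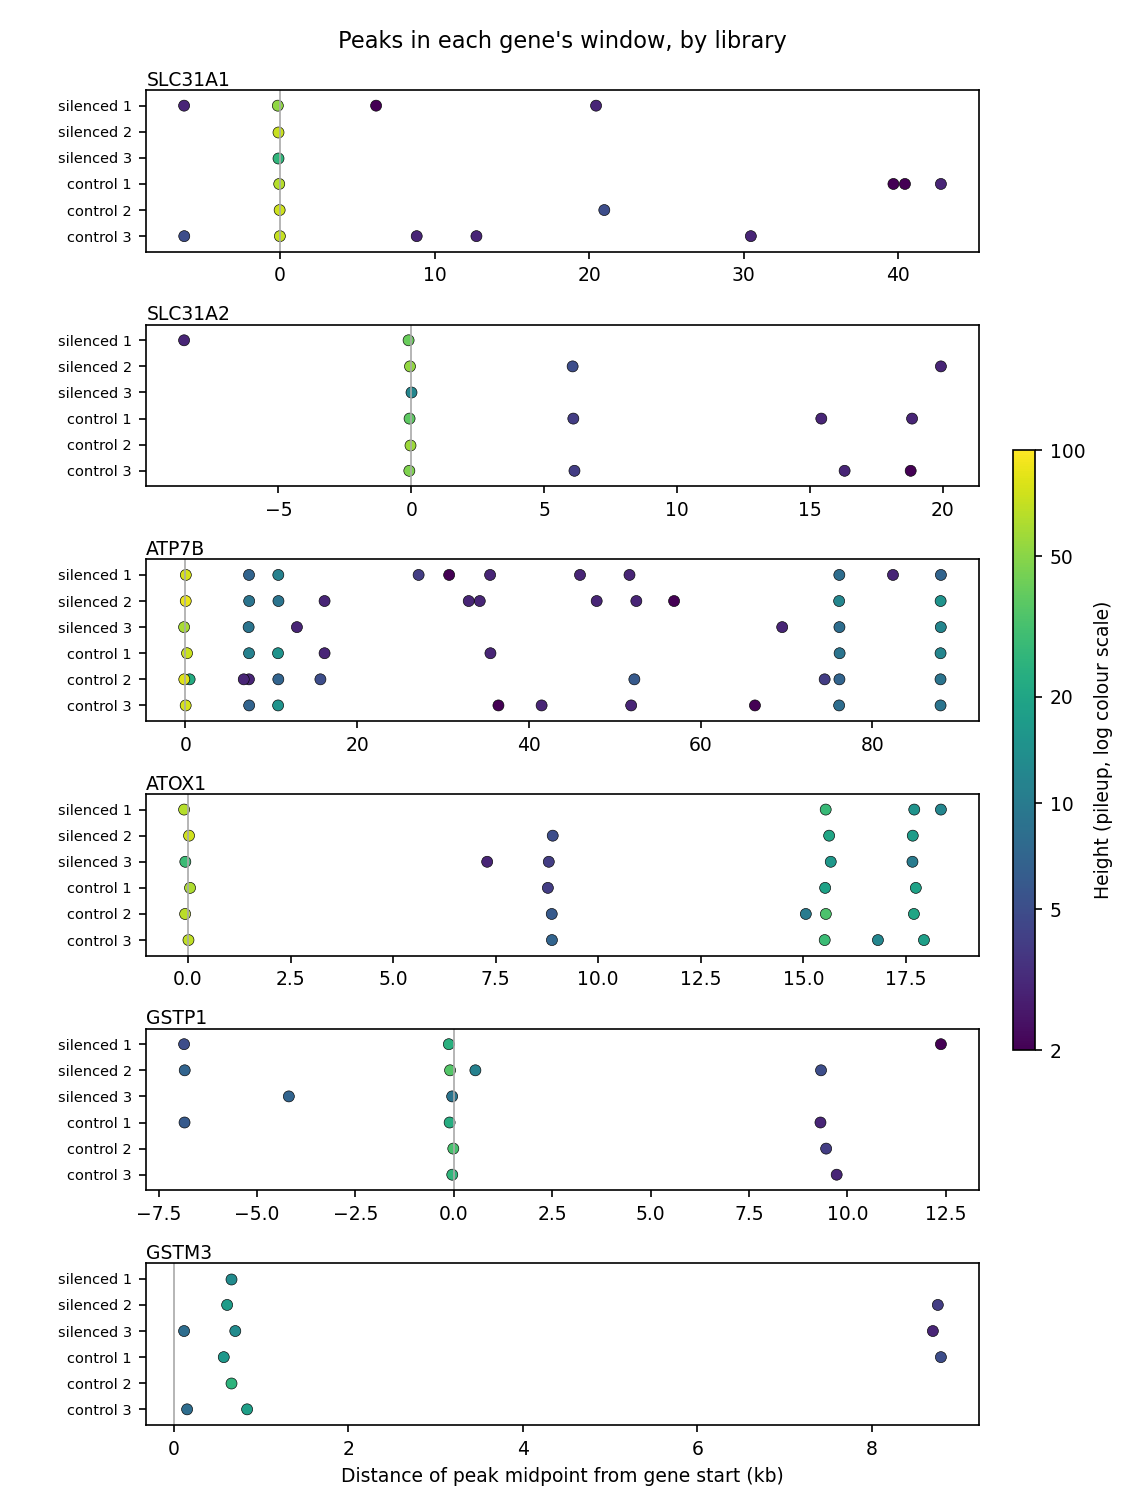
Midpoints of all peaks in the 6 windows, as distance in kb from the gene start (positive into the gene, except for SLC31A2, where positive means a larger coordinate), with 1 row per library and the colour giving the height on a log scale. Columns of points are sites called in several libraries: the start in all genes, further sites called in all 6 lists in ATP7B and ATOX1, and weaker sites called in 3 or 4 lists at SLC31A2, GSTP1 and GSTM3.

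ATOX1, the copper chaperone, had a tall start region and a pair of shared regions at its far end. The start region (chromosome 5, 151758117 to 151759141) covers the ATOX1 start. It also overlaps the far end of the lncRNA gene ATOX1-AS1, whose span on the other strand runs from 151753080 to 151758360. The start of that span lies outside the region. ATAC-seq has no strand, so the part over both genes cannot be divided between them. Heights were 65, 75 and 29 in the silenced libraries, against 62, 67 and 69 in the controls. Silenced replicate 3 was the only library below 62. Percentiles were 94.7, 97.6 and 91.3 in silenced and 95.4, 93.7 and 93.1 in control libraries. The groups overlap, the score difference was 0.09 (SE 0.20, 95% interval -0.34 to 0.51), and the limma adjusted p was 0.978. The interval leaves room for a shift of up to 0.51 score units.

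At the far end of ATOX1 a region (151742770 to 151743372) lies across the end of the gene span. Its heights were 28, 20 and 16 in silenced and 19, 33 and 29 in control libraries, and the highest and the lowest percentile, 62.8 and 28.2, were in silenced replicate 3 and control replicate 1. A broader region beyond the gene (151739987 to 151741182) had heights of 15, 17 and 10 in silenced and 19, 20 and 18 in control libraries. These 3 silenced heights lie below the 3 control heights, but the percentiles of 16.8, 23.1 and 31.0 against 30.0, 15.8 and 16.5 overlap. A weaker region inside the span (151749628 to 151749997) was called in all libraries but silenced replicate 1, at heights of 4 to 7. Peaks per window were 4, 4 and 5 in silenced and 4, 5 and 5 in control libraries, the most even count of the 6 genes (two-sided exact permutation p = 1).

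GSTP1, a glutathione transferase abundant in many tumours, had a start region of middle rank. The region (chromosome 11, 67583430 to 67584168) covers the antioxidant and AP-1 letters TGACTCAGC shown above. Its height was 24, 35 and 9 in the silenced libraries, against 23, 32 and 26 in the controls. The height of 9 in silenced replicate 3 stands apart from the other 5 libraries. In percentiles the region stood at 69.9, 75.5 and 34.4 in silenced and 59.7, 65.1 and 64.7 in control libraries. The control libraries fall between the silenced ones, and the score difference was -0.07 (SE 0.29, limma adjusted p = 0.986). Without silenced replicate 3 it turned to 0.27, since the other 2 silenced libraries lie above all 3 control libraries. The window held 5 other regions, none called in more than 4 lists. Peaks numbered 3, 4 and 2 in silenced and 3, 2 and 2 in controls (exact two-sided permutation p = 0.7).

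GSTM3 had the start region of lowest median rank among the 6 genes, and the broadest one. The merged region (chromosome 1, 109739676 to 109741155) reaches from inside the gene to just past the RefSeq start. Silenced replicates 1 and 2 and control replicates 1 and 2 had 1 peak of 1146 to 1459 bp there, while silenced replicate 3 and control replicate 3 had 2 separate peaks. The midpoints of the taller peaks lay 574 to 841 bp into the gene. Heights were 13, 17 and 13 in the silenced libraries, against 16, 25 and 18 in the controls. The groups overlap. Percentiles were 34.7, 30.8 and 63.0 in silenced and 45.1, 64.3 and 49.3 in control libraries. The score difference was -0.26 (SE 0.31, limma adjusted p = 0.967). It ran from -0.52 to -0.11 when 1 library was left out and was -0.07 when ranked by height. The window held only 1 other region, 8598 bp from the start, at heights of 4 and 3 in silenced replicates 2 and 3 and 5 in control replicate 1. Peaks per window numbered 1, 2 and 3 in silenced and 2, 1 and 2 in controls (exact two-sided permutation p = 1). GSTM3 belongs to a family of similar genes, and how reads with several matches were placed is not given in the sources used here.

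**Figure D3:**
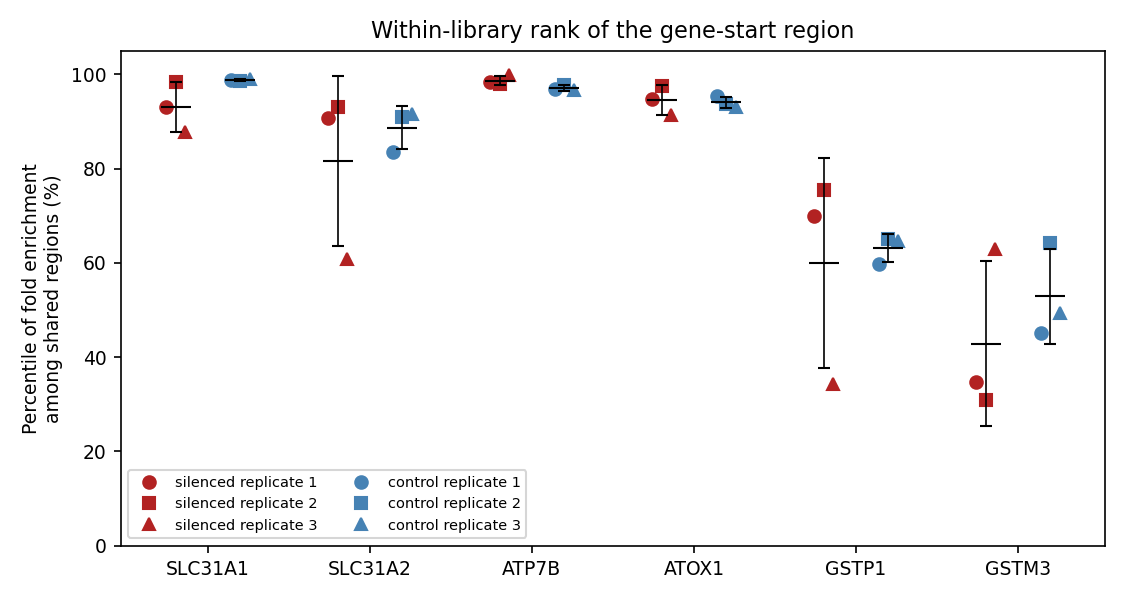
Percentile of the start region by fold enrichment among the 37284 shared regions of each library, with 1 point per library (shape gives the replicate number) and black bars for the group mean ± SD (n = 3). SLC31A1 and ATP7B sit near the top, where the groups do not overlap, and SLC31A2, GSTP1 and GSTM3 spread over more than 30 points.

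By median percentile over the 6 libraries the start regions ordered as SLC31A1 (98.5), ATP7B (97.8), ATOX1 (94.2), SLC31A2 (90.9), GSTP1 (64.9) and GSTM3 (47.2). Over all 9913 start regions the median was 76.1. Among the 6 members, the 4 copper genes were thus above this median and the 2 glutathione transferases below it. In the wider set described below this split did not hold throughout. There the glutathione transferases GSTA4 (84.3 to 94.3 over the libraries) and GSTK1 (77.5 to 89.4) stood above this median in every library. GSTM4 (66.0 to 81.7) and GSTZ1 (73.1 to 82.0) lay on both sides of it, and only GSTO1 (26.6 to 49.9) stayed below. Among the copper-handling genes, COMMD1 stood below it at 12.0 to 59.8. CCS (66.6 to 93.7) and COX17 (72.3 to 84.7) lay on both sides, and SCO1 (92.5 to 98.6) and MTF1 (87.9 to 93.9) stayed above. SLC31A1 stood above ATP7B in 4 of 6 libraries, and GSTP1 above GSTM3 in 5 of 6, so the order of those neighbours changes between libraries. ATP7B stood above ATOX1, ATOX1 above SLC31A2, and SLC31A2 above GSTP1 in 6 of 6 libraries. The step from SLC31A2 to GSTP1 was the largest in the median, 24.8 points (17.6 to 26.9 over the libraries). The spread of a start region over the libraries ran from 3.17 points at ATP7B to 41.2 points at GSTP1, against a median of 19.2 points over all start regions. Leaving out silenced replicate 3 reduced it to 15.8 points at GSTP1 and from 32.3 to 9.67 points at SLC31A2, and left 33.5 points at GSTM3.

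The authors' fold enrichment and FDR give the strength of these start peaks within each list. At ATP7B the fold enrichment was 20.7, 20.7 and 23.3 in silenced and 19.2, 20.1 and 19.1 in control libraries. At SLC31A1 it was 16.8, 21.3 and 12.4 in silenced and 21.3, 21.3 and 21.95 in control libraries. The control values at SLC31A1 lie within a narrow range, and the silenced ones spread more widely below and into it. GSTP1 had 10.4, 12.1 and 5.15 in silenced and 9.23, 10.2 and 10.1 in control libraries, and its FDR in silenced replicate 3, 3.67e-05, was the weakest of any start peak here. GSTM3 had 6.31, 6.34 and 7.61 in silenced and 7.59, 10.1 and 8.12 in control libraries.

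The width of the start peaks also varied between libraries. The SLC31A1 peak was 874, 876 and 466 bp long in silenced and 620, 689 and 568 bp in control libraries, so silenced replicates 1 and 2 had the longest peaks and silenced replicate 3 the shortest. The ATP7B peak measured 875, 887 and 392 bp in silenced libraries and 1132 and 892 bp in control replicates 1 and 3. Control replicate 2 had 2 peaks there instead, of 574 and 495 bp, the taller of them over the start. At ATOX1 the lengths were 834, 587 and 460 bp in silenced and 588, 514 and 1003 bp in control libraries. The GSTP1 peak was 466, 469 and 353 bp long in silenced and 463, 739 and 617 bp in control libraries. SLC31A2 varied least, from 455 to 565 bp. Silenced replicate 3 had the shortest start peak at SLC31A1, ATP7B, ATOX1 and GSTP1, and not at SLC31A2.

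**Figure D4:**
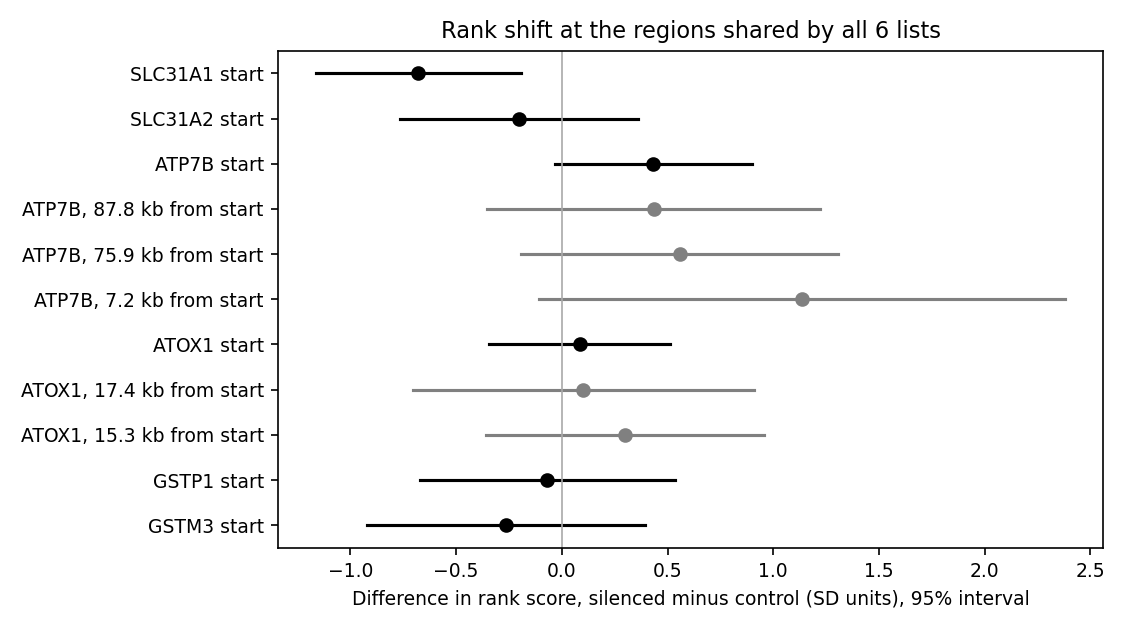
Difference in rank score (silenced minus control, SD units) with its 95% interval from limma for the 11 member regions called in all lists, start regions in black and others in grey. The interval at the SLC31A1 start lies below 0 and the other 10 include 0. No adjusted p in the plot is below 0.963.

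No region in these windows separated the groups fully, with calls in every library on one side and no call on the other: 0 of 59 did so, beside 0.331% of all 507440 regions. Of the 59 regions, 37 (62.7%) were called in a single library, against 74.1% of all regions, and these reached a height of at most 12. The 6 windows together held 25, 25 and 18 peaks in silenced and 24, 21 and 27 in control libraries. The genes whose start regions had the most similar percentiles over the 6 libraries were found by the smallest root mean square difference among at least 11186 other protein-coding genes. For ATP7B they were PSMA5 (0.395 points) and MAP3K3 (0.50 points), and for SLC31A1 REXO2 (0.90 points) and GPATCH8 (1.46 points). SLC25A16 (0.651 points) and TAB1 (1.07 points) were nearest to ATOX1, and CRYBG3 (2.05 points) and HNRNPM (2.11 points) to SLC31A2. For GSTP1 they were HASPIN and P2RX5, which share one region (2.61 points), and for GSTM3 MIER3 (5.79 points) and CYFIP1 (6.14 points).

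The wider set of platinum and glutathione handling was read from a list of 29 other genes. Of these, 21 had a start region called in all lists (72.4%, beside 55.8% of protein-coding genes), 4 in some lists and 4 in none. By limma 0 of the 21 passed an adjusted p of 0.05. The score difference was positive in 7 and negative in 14, with a median of -0.14, where the median over all start regions was -0.00041. The 21 regions share their 6 libraries, so these signs are not independent, and they were not tested as a set. CCS, the copper chaperone of superoxide dismutase, was the 1 gene of the 21 with an unadjusted p under 0.05, which 3.79% of all start regions had. Its percentiles were 83.5, 82.9 and 66.6 in silenced and 91.0, 83.0 and 93.7 in control libraries, which overlap (score difference -0.49, SE 0.23, limma adjusted p = 0.963). The 5 copper-handling genes CCS, COX17, SCO1, COMMD1 and MTF1 all had a start region in every list, with 1 positive and 4 negative differences. Of the 5 uptake genes 3 had one, and of the 5 export genes 4. No list had a start peak at SLC22A2, an organic cation transporter of kidney, or at ABCC2, an export pump for glutathione conjugates. GSTM1 and GSTM5, which lie in the same cluster as GSTM3, had none either, while GSTM4 of that cluster had one in all 6 lists and GSTM2 in 1. The copy number of these similar genes was not measured, and how reads with several matches were placed is not given. A missing peak there need not mean a closed start. Among the 9 other glutathione transferases, 5 had a start region in all lists, with 3 positive and 2 negative differences.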

How the data were processed

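ATAC-seq peak lists of 3 silenced and 3 control libraries were used. Per the labels, 10000 to 50000 cells went into a library, and the reads were pairs of 150 bp. The submitters' processing notes name Trimmomatic 0.36, Bowtie2 2.2.6, Picard 2.8.2, MACS2 2.1.1, bedtools 2.25.0 and GRCh38, with no role or settings. Per the file headers, the authors deposited for each peak its interval, fold enrichment (a ratio over background), p-value, FDR and pileup signal, called height here. One list exists per library, and all deposited p-values are at most 0.00987. Whether replicates are separate cultures is not stated, so p-values measure the spread between these libraries.

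Peaks on the numbered chromosomes, X and Y were merged at 1 bp of overlap (Python 3.11.15, pandas 2.3.3). Gene spans came from RefSeq GRCh38.p14, and all 6 members matched by symbol. A gene start came from the promoter table, or from either end of the span for genes without an entry there, among them SLC31A2. Relative coverage is the smallest value of (height + 1) / fold enrichment − 1 in a list. Rank scores were tested with limma 3.58.1 (lmFit, eBayes with trend) in R 4.3.3, after a test on simulated data. Peaks per window were compared by exact permutation. The 5 regions outside the starts are all those called in 6 lists. The genes described are the 6 members, with other pathway genes named where the start had an unadjusted p under 0.05, one-group calls or no peak, and 2 nearest genes per member by percentile. A few more pathway genes are named as family members or examples. Alternatives changed the ranked measure, the peak filter, the window, the overlap rule, the pairing and the libraries. Members, lists and motifs were chosen with earlier results of these data known.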

Additional observations from a re-analysis of the deposited data

How the results depend on the processing

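None of the 11 shared regions passed an adjusted p of 0.05 under any alternative (limma, smallest adjusted p = 0.759), including the fits that each left out 1 library (0 to 0 regions). The sign of the difference held at 7 of the 11 regions in every alternative that kept the region. The shared ATP7B regions outside the start were lost at an FDR of at most 1e-05. The one starting at 52004563 was also lost at a height of at least 4. It reversed when ranked by height at the ATOX1 start (-0.0246) and the region beyond ATOX1 (-0.108), and when ranked by p-value at the same 2 (-0.00730 and -0.0724). Leaving out 1 library gave -0.0771 to 0.231 at the ATOX1 start, -0.43 to 0.18 at SLC31A2, -0.28 to 0.27 at GSTP1 and -0.0153 to 0.257 beyond ATOX1. An FDR of at most 1e-05 left 6 of the 11 regions and a height of at least 4 left 10. The cause of these reversals was not tested.

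The difference in peaks per window reversed for GSTP1 at an FDR of at most 1e-05 (-0.333), for ATP7B at a height of at least 4 (-1) and with equal list sizes (-1.33), and for SLC31A2 with equal list sizes (0.333). Leaving out 1 library gave -2.67 to -1 for SLC31A1, -2 to -0.5 for SLC31A2, -0.167 to 2.33 for ATP7B, -0.667 to -0.167 for ATOX1, 0.167 to 1.17 for GSTP1 and -0.167 to 0.833 for GSTM3. Regions called in one group only numbered 0 to 1 in those fits. Without silenced replicate 2 the 1 region lay in the GSTP1 window, called in all 3 control libraries, and without control replicate 2 it lay in the SLC31A2 window.

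The shared replicate numbers were used as a replicate block. This left each mean difference as it was (SLC31A1 start -0.68, limma adjusted p = 0.975; peaks in the SLC31A1 window -1.67, exact sign-flip p = 0.5, which cannot go below 0.25) and changed no call at an adjusted p of 0.05. It moved the number of member regions with an unadjusted p under 0.05 from 1 to 2, the second being the ATP7B region 7235 bp from the start. That number ran from 0 to 3 when 1 library was left out and was 0 when ranked by height. Same-numbered libraries did not deviate together across regions (mean correlation -0.00263 over 3 pairs). Sequencing depth in reads is unknown, and silenced replicate 3 had the lowest relative coverage (0.237).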
